A study of Mus musculus with 5 samples.

Results

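The 10 genes described here, of 8251 that the arrays measured by a probe set of their own, encode proteins known from the secretions of salivary glands (Smr3a, Prpmp5, Dnase1, Car6, Pip, Bpifa2, Amy1, Klk1, Klk1b5 and Egf). They were chosen by their intensities on these same arrays, above all by a signal that was far brighter on a single saline array than elsewhere, so that brightness is given below as a description and not as a tested result. Every probe set whose platform annotation names exactly 1 of these genes was taken, which gave 15 probe sets of the 12422 that are not manufacturer's controls, and 5 of the genes have 2 probe sets.

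Saliva is made by acinar cells, which store digestive and protective proteins in granules and release them by exocytosis, and is modified by the cells of the ducts. In the mouse the parotid gland is serous and is known for amylase, parotid secretory protein and carbonic anhydrase VI. The submandibular gland also has granular duct cells that store epidermal growth factor and kallikreins, which are trypsin-like serine proteases.

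The samples were 5 Affymetrix expression arrays of total RNA labelled as murine lung, all from A-J mice dosed into the trachea. The 2 control arrays followed saline and carry the title numbers 6 and 48. The 3 treated arrays followed IL-13, the cytokine interleukin-13, known for its action on airway epithelium, and carry the title numbers 6, 18 and 48. The labels give no unit for these numbers, no age or sex, and no count of animals behind an array, so every combination of treatment and number is a single array. A p-value below therefore reflects how much these arrays spread, which may be technical. Values are intensities in arbitrary units, comparable between arrays for 1 probe set but not between probe sets. Values under 55.3, the 20th percentile of all values, were raised to that floor before a ratio or a logarithm was taken, and a fold against a floored value is written "at least". In RNA of a whole tissue, fewer cells of a type and less RNA per cell cannot be told apart.

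The labelled tissue was checked against its markers. The airway genes Scgb1a1 (22020 to 31020) and Foxj1 (882.7 to 1175) were bright on all 5 arrays. The surfactant gene Sftpc read 2615 on saline 6 against 194.3 on saline 48, while IL-13 arrays 6, 18 and 48 had 257.2, 17180 and 300.5, so this marker of the alveolus was high on IL-13 18, lower on saline 6 and near or under the median of all probe sets (343) elsewhere. Other genes of the alveolus shared this in part. Sftpb and Slc34a2 were, like Sftpc, brightest on IL-13 18 with saline 6 next. Ager, Hopx and Pdpn were also brightest on IL-13 18 (4928, 1606 and 894.8) but lowest on saline 6 (1872, 483.6 and 334.4). Ager and Napsa (1805 to 2837) were bright on all 5 arrays, with Napsa brightest on saline 48. Sftpd was dim on all arrays (121.1 to 217.1). Thyroglobulin (Tg, 13170 to 25520) and parathyroid hormone (Pth, 8658 to 13790) were bright on all arrays, although the label names lung alone. So were 15 of the 16 skeletal muscle genes measured, each at 1159 or more on every array, while Myh2 was not (15.29 to 63.78).

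The members lie on 7 chromosomes, and Klk1 and Klk1b5 are immediate neighbours on chromosome 7. For a view of the DNA around their starts, RefSeq windows of the C57BL/6J reference (build GRCm38.p6) from 250 bases before to 50 after the annotated start were read, of which the 10 genes have 13 (Dnase1, Amy1 and Egf have 2 each). These are reference sequences and not those of the A-J mice. Capitals mark the letters TATAAA, of the TATA box, and CANNTG, the E-box bound by basic helix-loop-helix factors such as Bhlha15, a regulator of acinar cells. Both were searched on both strands. Smr3a is shown for the highest bound on its excess on saline 6, Pip and the downstream Amy1 start for their TATAAA, the upstream Amy1 start because parotid gland is known to use it, and the kallikreins because they are close copies.
Smr3a, chr5:88002275-88002574, plus strand: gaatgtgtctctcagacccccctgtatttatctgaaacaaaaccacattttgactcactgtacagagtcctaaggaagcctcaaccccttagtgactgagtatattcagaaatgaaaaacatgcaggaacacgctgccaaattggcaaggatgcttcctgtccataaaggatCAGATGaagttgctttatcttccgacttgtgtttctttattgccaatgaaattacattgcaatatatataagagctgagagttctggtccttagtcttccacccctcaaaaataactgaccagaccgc
Pip, chr6:41847299-41847598, plus strand: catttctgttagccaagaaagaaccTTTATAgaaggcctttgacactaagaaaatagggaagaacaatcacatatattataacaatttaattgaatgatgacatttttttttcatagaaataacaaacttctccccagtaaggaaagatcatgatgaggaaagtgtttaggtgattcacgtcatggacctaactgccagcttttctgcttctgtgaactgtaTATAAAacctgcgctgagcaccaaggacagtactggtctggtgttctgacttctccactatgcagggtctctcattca
Amy1, upstream start, chr3:113577701-113578000, minus strand: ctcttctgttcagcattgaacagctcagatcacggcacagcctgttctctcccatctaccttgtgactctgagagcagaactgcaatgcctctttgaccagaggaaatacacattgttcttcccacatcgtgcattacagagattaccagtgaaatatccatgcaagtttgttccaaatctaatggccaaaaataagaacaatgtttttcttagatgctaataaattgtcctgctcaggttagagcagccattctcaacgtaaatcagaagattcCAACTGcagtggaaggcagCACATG
Amy1, downstream start, chr3:113574713-113575012, minus strand: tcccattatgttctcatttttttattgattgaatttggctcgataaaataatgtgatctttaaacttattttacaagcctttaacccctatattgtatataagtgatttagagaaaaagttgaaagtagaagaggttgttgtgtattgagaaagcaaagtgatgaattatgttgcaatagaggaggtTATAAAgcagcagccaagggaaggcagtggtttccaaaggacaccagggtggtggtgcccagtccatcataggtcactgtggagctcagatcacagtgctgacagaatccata
Klk1, chr7:44225110-44225409, plus strand: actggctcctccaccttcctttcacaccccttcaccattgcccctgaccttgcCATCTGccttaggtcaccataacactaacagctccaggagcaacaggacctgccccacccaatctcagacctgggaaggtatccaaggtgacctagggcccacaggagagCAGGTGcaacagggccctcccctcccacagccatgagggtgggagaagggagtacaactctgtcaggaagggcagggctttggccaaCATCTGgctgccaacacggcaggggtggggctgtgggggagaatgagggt
Klk1b5, chr7:44216224-44216523, plus strand: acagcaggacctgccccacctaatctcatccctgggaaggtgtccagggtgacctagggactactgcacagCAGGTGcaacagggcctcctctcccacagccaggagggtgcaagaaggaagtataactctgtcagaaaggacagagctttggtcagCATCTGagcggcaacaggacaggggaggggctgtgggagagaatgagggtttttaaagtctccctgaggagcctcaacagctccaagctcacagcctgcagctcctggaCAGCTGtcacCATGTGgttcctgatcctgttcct

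TATAAA was found in 5 of the 13 windows, from 4 genes, against 13.6% of 32851 windows of this length in the table. Counting the first transcribed base as 0, the Pip window held it from position -28 and, on the opposite strand, from -225, and the downstream Amy1 window from -63. CANNTG was found in 10 of the 13 windows, from 8 genes, against 72.3% of all. The letters ACGTG, a core bound by factors of the unfolded protein response, were in 5 of the 13, from 4 genes, against 19.6%. In Dnase1 and Car6 some of these overlap a CANNTG. No motif was found in the window of Bpifa2, which says only that these letters are not in it. The windows of Klk1 and Klk1b5 aligned over 208 positions with 85.6% identity, and Klk1b5 aligned with Klk1b22 over 291 positions with 85.9% identity. A match is a description of letters and no evidence that a factor binds.

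Among the proteins with protective or binding roles, Smr3a, a proline-rich secreted protein of the submandibular gland, read 22980 on saline 6 against 12.19 on saline 48, while IL-13 arrays 6, 18 and 48 had 22.75, 28.65 and 16.45. Saline 6 alone was bright, and the other 4 arrays, of both treatments, were under the floor. That is an excess of at least 416-fold over the highest other array, or 8.70 on the log2 scale; such bounds rest on the floor, and with one at the 40th percentile it was 6.77. Pip, prolactin-induced protein, an aspartyl protease-like glycoprotein of exocrine glands, read 10660 on saline 6 against 35.25 on saline 48, while IL-13 arrays 6, 18 and 48 had 18.78, 12.09 and 45.93. Its pattern was the same as that of Smr3a, with 4 arrays under the floor and an excess of at least 193-fold. Bpifa2, parotid secretory protein, which binds bacterial lipopolysaccharide, read 10210 on saline 6 against 116.7 on saline 48, while IL-13 arrays 6, 18 and 48 had 93.46, 40.07 and 83.49. Here 3 of the other arrays were above the floor, and the excess was 87.5-fold over saline 48.

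Prpmp5 encodes a salivary proline-rich protein, of a family that binds dietary tannins. Its probe set 98382_f_at read 25350 on saline 6 against 374.2 on saline 48, while IL-13 arrays 6, 18 and 48 had 892.8, 393.1 and 595.3. All 5 arrays were above the median of all probe sets, and saline 6 stood 28.4-fold above IL-13 6, the highest of the others. The ending f_at marks probes that may take up related transcripts. The second probe set, 98383_r_at, read 1233 on saline 6 against 43.7 on saline 48, while IL-13 arrays 6, 18 and 48 had 332.2, 284.8 and 154.2, an excess of 3.71-fold. On both probe sets saline 48 was the lowest array and IL-13 6 the highest after saline 6, so the 2 saline arrays lay at the opposite ends with all 3 IL-13 arrays between them.

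Among the enzymes, Amy1, which encodes the amylase of saliva and cleaves starch, read 25150 on saline 6 against 369.8 on saline 48, while IL-13 arrays 6, 18 and 48 had 364.6, 357.5 and 447.6. The other 4 arrays were within 1.25-fold of each other and just above the median of all probe sets, and saline 6 stood 56.2-fold above the highest of them. Car6, the secreted carbonic anhydrase of saliva, read 14200 on saline 6 against 10.03 on saline 48, while IL-13 arrays 6, 18 and 48 had 21.15, 46.1 and 33.87. This was at least 257-fold, with 4 arrays under the floor. Dnase1, a deoxyribonuclease secreted by the parotid gland among other organs, read 14510 on saline 6 against 33.01 on saline 48, while IL-13 arrays 6, 18 and 48 had 15.74, 40.32 and 30.48 (probe set 92865_at). Its excess was at least 263-fold. The second Dnase1 probe set, 160452_at, lay between 13.25 and 15.95 on all 5 arrays, under the floor everywhere, and did not show the difference.

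Klk1, the tissue kallikrein that releases kinins, read 11590 on saline 6 against 279.6 on saline 48, while IL-13 arrays 6, 18 and 48 had 253.5, 216.5 and 209.0 (probe set 100061_f_at). The other 4 arrays were within 1.34-fold of each other and saline 6 stood 41.4-fold above saline 48. The second probe set, 100060_i_at, read 198.3 on saline 6 and 1.28 to 12.6 on the others, at least 3.59-fold, and was under the median of all probe sets even on saline 6. Klk1b5, a close copy of Klk1, read 3299 on saline 6 against 103.3 on saline 48, while IL-13 arrays 6, 18 and 48 had 37.62, 123.8 and 231.3 (104495_f_at). Its excess was 14.3-fold, and the other 4 arrays spread over 4.18-fold with IL-13 48 highest. On 161637_f_at it read 1650 on saline 6 against 15.14 on saline 48, while IL-13 arrays 6, 18 and 48 had 42.51, 14.9 and 89.18, an excess of 18.5-fold, again with IL-13 48 next. Since 3 of these 4 kallikrein probe sets are of the f_at kind and the genes are near copies, which member of the family gave the signal is uncertain.

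Egf, the growth factor stored by granular duct cells, did not share the pattern. Its probe set 102774_at read 1089 on saline 6 against 1239 on saline 48, while IL-13 arrays 6, 18 and 48 had 1496, 896.7 and 1353. All arrays were above the median of all probe sets, the whole range was under 2-fold, and saline 6 was second lowest, at 0.728 times the highest other array. The second probe set, 161460_r_at, was under the floor on all 5 arrays (2.772 to 49.9), lowest on saline 6.

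**Figure D1:**
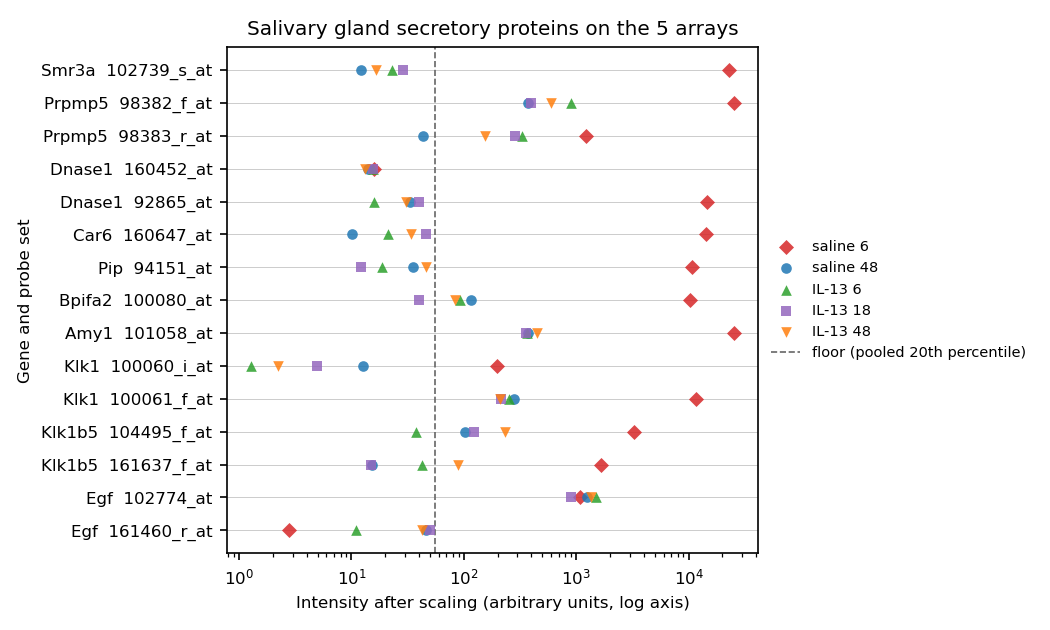
Scaled intensity (log axis, arbitrary units) of the 15 probe sets of the 10 genes; a point is 1 array and the dashed line is the floor of 55.3. Saline 6 lies apart at the right for Smr3a (22980), Amy1 (25150) and most others, while the Egf probe set 102774_at has all 5 arrays between 896.7 and 1496.

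Over all members, saline 6 was the brightest array for 13 of the 15 probe sets, 1 of which (Dnase1 160452_at) was under the floor, and for 19.4% of all 12422. Of the members, 12 probe sets were above the median on saline 6 and 3 on each other array. Saline 6 exceeded the highest other array at least 2-fold for 11 of the 12 member probe sets that were above the median on saline 6, against 1.4% of all such probe sets, and at least 10-fold for 10 of the 12, against 0.231%. Because this difference chose the members, nothing further is read from these shares. Just inside and outside the 2-fold line were Prpmp5 98383_r_at (3.71-fold) and Egf 102774_at (0.728-fold). On 7 probe sets the other 4 arrays were all under the floor and have no order. On the other 8 the brightest of the 4 was IL-13 6 for 3, IL-13 48 for 3, saline 48 for 2 and IL-13 18 for 0, so the members had no common order once saline 6 is set aside.

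Within title numbers, treatment could be set against saline on a pair of arrays, with no test. In the pair at 6, IL-13 was at least 2-fold lower for 11 of the 12 member probe sets above the median on either array, where 4.06% of all such probe sets were lower. None was at least 2-fold higher, against 3.5%. This pair was used to choose the members, so these counts are a description. The arrays of the pair at 48 also entered the choice, since members had to be far dimmer there than on saline 6. In this pair 3 member probe sets were above the median on either array, those of Amy1, Prpmp5 (98382_f_at) and Egf (102774_at). None of the 3 was 2-fold apart, where 2.08% of all such probe sets were lower and 1.13% higher with IL-13. IL-13 48 stood at 1.21 times saline 48 for Amy1, 1.59 times for Prpmp5 and 1.09 times for Egf. At lower intensities, IL-13 48 was 2.24-fold above saline 48 for Klk1b5 104495_f_at. With saline 48 at the floor, it was at least 2.79-fold above for Prpmp5 98383_r_at and at least 1.61-fold for Klk1b5 161637_f_at. IL-13 48 was 0.748 times saline 48 for Klk1 100061_f_at and 0.715 times it for Bpifa2. With saline 48 in place of saline 6 as the control of IL-13 6, the count of 11 became 0.

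**Figure D2:**
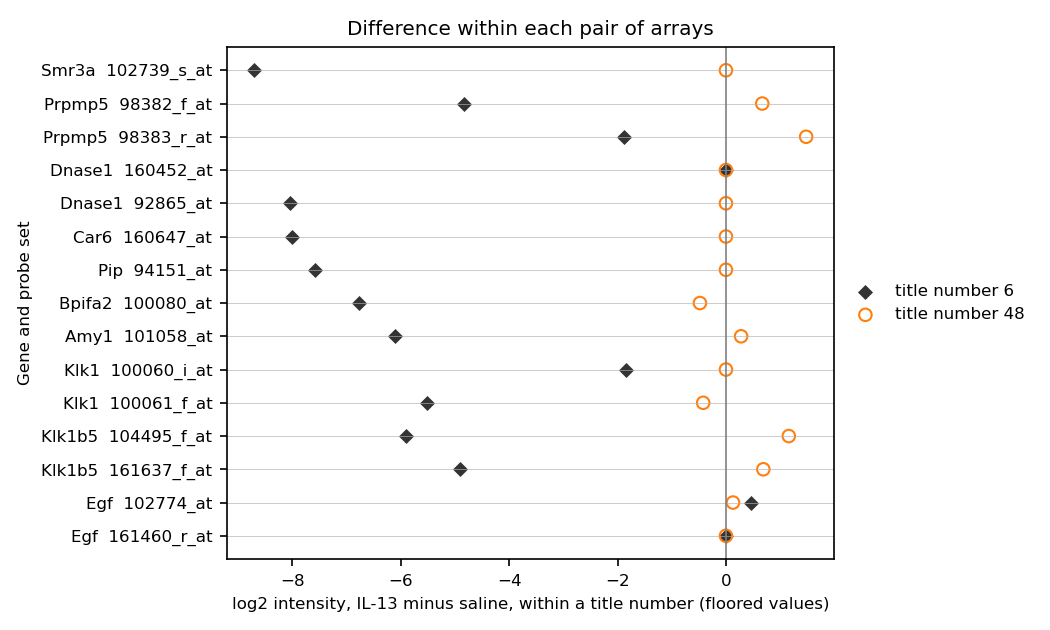
Difference of log2 intensity, IL-13 minus saline, for the 15 probe sets; diamonds are the arrays with title number 6 and open circles those with 48, 1 array against 1, after the floor. Diamonds reach -8.7 for Smr3a, while circles lie between -0.48 (Bpifa2) and 1.48 (Prpmp5 98383_r_at); points at 0 have both arrays at the floor.

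Over all 5 arrays, no member was called different between IL-13 and saline. The test was limma with treatment as its only term, with Benjamini-Hochberg adjustment over all 7811 probe sets that exceeded 210 (the 40th percentile of all values) on at least 2 arrays. Of the 15 member probe sets, 6 from 5 genes passed that filter. The other 9 did not, including all of Smr3a, Dnase1, Car6, Pip and Bpifa2, which were bright on at most 1 array. None of the 6 was called in either direction at an adjusted p of 0.05, while 0.0384% of all probe sets tested were called lower and 0.0128% higher. At an unadjusted p under 0.05 in limma there were 0 of the 6, against 310 lower and 413 higher of the 7811. With so few member probe sets, nothing is read from that 0. Amy1 differed by -2.98 on the log2 scale (SE 1.56, adjusted p 0.622) and Klk1 100061_f_at by -3.0 (SE 1.38, adjusted p 0.578). These differences are large, but so is the spread between the saline arrays. Klk1b5 104495_f_at differed by -2.32 (SE 1.38, adjusted p 0.671) and Prpmp5 98382_f_at by -2.38 (SE 1.58, adjusted p 0.703). Prpmp5 98383_r_at (-0.10, SE 1.19, adjusted p 0.984) and Egf (0.07, SE 0.26, adjusted p 0.947) had means nearly equal between treatments.

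The 3 IL-13 arrays were all below both saline arrays for 1 of the 6, Klk1 100061_f_at, where 11% of all probe sets tested showed such a separation. With no filter all 15 entered the fit, over 12422 probe sets, and none was called (adjusted p 0.773 to 1). Smr3a, Dnase1 92865_at, Car6, Pip and Klk1 100060_i_at had the same unadjusted p there, because saline 48 and every IL-13 array were at the floor. Their log2 differences ran from -0.92 (Klk1 100060_i_at) to -4.35 (Smr3a) all the same. For these probe sets the fit could not call a difference however bright saline 6 was, so nothing is read from the lack of a call.

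The saline arrays decided these values. Without saline 6, Amy1 differed by 0.07 (SE 0.23), Klk1 by -0.31 (SE 0.22), Klk1b5 by 0.17 (SE 0.75), Prpmp5 98382_f_at by 0.66 (SE 0.46) and Egf by -0.02 (SE 0.33), with adjusted p from 0.823 to 0.997. Prpmp5 98383_r_at then turned to 2.14 (SE 0.45, adjusted p 0.509), with saline 48 at the floor and all 3 IL-13 arrays above it. Without saline 48 the control was saline 6 alone, the array whose brightness chose the members, so the differences of that fit are a description and no test. The largest were those of Amy1 (-6.02), Klk1 100061_f_at (-5.68) and Prpmp5 98382_f_at (-5.42). A lone control is there assumed to vary like the IL-13 arrays, which the values of saline 48 for these genes do not bear out.

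**Figure D3:**
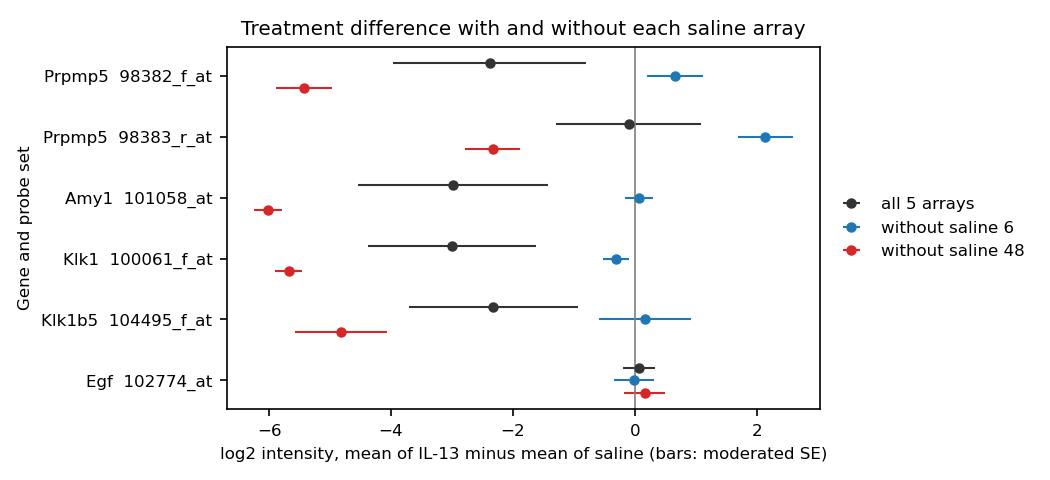
Mean log2 intensity of IL-13 minus that of saline for the 6 member probe sets tested, with all 5 arrays (black), without saline 6 (blue) and without saline 48 (red); bars are the moderated SE of limma. Amy1 lies at -2.98 with all arrays, at 0.07 without saline 6 and at -6.02 without saline 48, while Egf stays between -0.02 and 0.16.

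The genes whose pattern was most like that of the members were ranked by the same excess, that of saline 6 over the highest of the other 4 arrays, over 5 arrays. Of 85 probe sets with an excess of at least 2-fold and a value above the median on saline 6, 11 were those of members and 62 named a single other gene, 59 genes in all. First was Gm4736, separated from Prpmp5 by 1 protein-coding gene on chromosome 6 (20270 on saline 6, 415.2 to 697.2 on the others, 29.1-fold, f_at). Wfdc12, of the whey acidic protein family of protease inhibitors, read 13760 on saline 6 and 266.6 to 752.1 on the others (18.3-fold), but its second probe set reached only 272.8. Prp2, a proline-rich protein gene with 2 protein-coding genes between it and Prpmp5, read 6295 on saline 6 and 188.3 to 670.3 on the others (9.39-fold, r_at). Its second probe set read 6215 on saline 6 but also 1824 on IL-13 48, an excess of 1.77 on the log2 scale.

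Of the kallikreins, Klk1b1 followed with 7762 on saline 6 and 577.6 to 836.7 on the others (9.28-fold), and Klk1b22 with 4181 against 458.1 to 756.4 (5.53-fold), both on f_at probe sets. Chia1, an acidic chitinase of the stomach, lung and parotid gland of mice, read 20430 on saline 6 and 2619 on IL-13 18, against 185.6 to 305.4 on the other 3 arrays. In having a second bright array it differed in its values from the members other than Egf, which read at most 393.1 on IL-13 18. The rest of the 12 were Tbc1d10a (6.25-fold, r_at, not shown by its second probe set), the macrophage receptor gene Marco (4.41-fold), the lymph node mucin gene Glycam1 (3.96-fold), the chemokine gene Ccl5 (3.91-fold), the glycerol phosphate dehydrogenase gene Gpd1 (3.79-fold, but a log2 excess of 0.50 on its second probe set) and the B cell receptor gene Cd79b (3.72-fold). None of the 11 that were tested was called between treatments by limma (adjusted p 0.529 to 0.909).

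**Figure D4:**
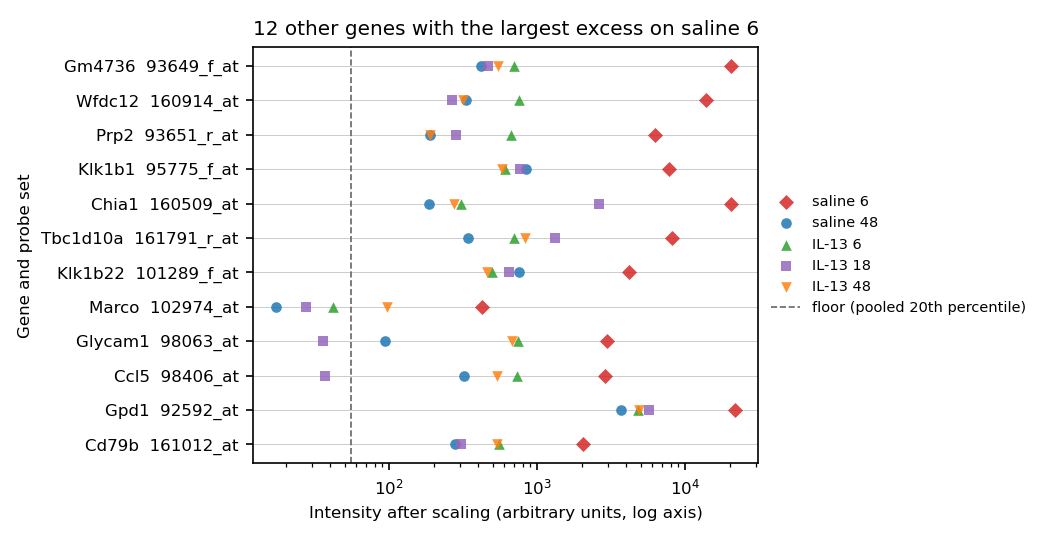
Scaled intensity (log axis, arbitrary units) on the 5 arrays of the 12 other genes with the largest excess on saline 6; the dashed line is the floor. Gm4736 and Wfdc12 have their other 4 arrays between 266.6 and 752.1, whereas Chia1 has a second high array, IL-13 18 (2619).

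Other salivary genes were taken as lists, with the members left out and the brighter probe set standing for a gene. Of 24 acinar secretory genes listed, 8 were measured, and saline 6 was the brightest array for 4 of them, against 20.4% of all 8251 genes. Besides Wfdc12 and Chia1 these were the androgen-binding protein gene Scgb1b27 (188.8 on saline 6, 47.22 to 69.91 on the others) and Prol1 (228.8, and 5.471 to 89.72), both under the median. Of the other 4, Pigr and Dmbt1 were lowest on saline 6, Wfdc18 lay between the other arrays there, and Smr2 was dim. Pigr, the receptor that carries immunoglobulin A into secretions, read 8738 on saline 6 and 10300 to 16410 elsewhere. Dmbt1, a scavenger receptor of mucosal fluids, read 4690 and 7658 to 11530. Wfdc18 read 3177 on saline 6 and 2600 to 8133 elsewhere, and Smr2 58.01 to 97.09 on all arrays. The median excess of the list was 0.54 on the log2 scale, against -0.29 for all genes and 6.13 for the members.

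Of 26 genes of the kallikrein family and the granular duct, 11 were measured and 7 were brightest on saline 6, with a median excess of 0.93. After Klk1b1 and Klk1b22, Klk1b16 read 965.5 on saline 6 and 185.5 to 292.9 on the others (3.3-fold). Klk1b9 (174.9), Klk1b21 (280.8) and Crisp3 (182.8), a secreted cysteine-rich protein, were brightest on saline 6 but under the median. Klk8, a kallikrein of skin and brain, differed little (398.6, and 353.2 to 360.3). Klk1b8 was 70.07 on saline 6 and up to 123.2 elsewhere, Klk6 and Klk1b11 were under the floor on all arrays, and the potassium channel gene Kcnk1 was lowest on saline 6 (1597, and 2589 to 4296). The family as a whole did not move together.

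After the floor, no gene of the machinery of fluid secretion or of the regulators of secretory cells had a 2-fold excess on saline 6. Of 19 measured genes of fluid secretion, 5 were brightest there (median excess -0.21 on the log2 scale). These were the potassium channel gene Kcnn4 (1236, and 424.0 to 685.2 elsewhere), the bicarbonate transporter gene Slc4a4 (533.4, and 111.4 to 315.9), the chloride transporter gene Slc12a2 (7169, and 5616 to 6030), Stim1 and P2rx4. The receptor gene P2ry2 was lowest on saline 6 (40.73, and 66.69 to 235.3 elsewhere). Chrm1 was under the floor on saline 6 (20.95) and on IL-13 48 (48.73), and read 86.26 to 134.5 on the others. Vipr1 was under the floor on saline 6 (46.36) and also on saline 48 and IL-13 48.

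Of 15 measured regulators, 3 were brightest on saline 6 (median excess -0.61). These were Sox10 (1044, and 689.6 to 733.0 elsewhere), Nkx2-3 (101.6, and 17.47 to 40.95) and Creb3l1 (1906, and 1515 to 1854). For Nkx2-3 all other arrays were under the floor, so its excess was at least 1.84-fold. Spdef, a factor of goblet cells, was lowest on saline 6 (38.42, and 229.0 to 427.3), as was Ehf (73.88, and 116.7 to 206.5). So was the growth factor receptor gene Fgfr2 on its brightest probe set (1309, and 3710 to 4541). A further Fgfr2 probe set was also lowest on saline 6 (182.6, and 234.1 to 331.3). On another, IL-13 6 was lower (387.4, against 429.4 on saline 6). Barx1, on its brighter probe set, was under the floor on both saline arrays (47.3 and 36.44) and read 62.19 to 228.6 with IL-13. Its second probe set was under the floor on all 5 arrays (15.87 to 24.5) and did not show the difference. Limma tested 5 genes of the acinar list, 5 of the kallikrein list, 15 of fluid secretion and 10 regulators, and called none between treatments in either direction (at an unadjusted p under 0.05, Pigr and Spdef were higher with IL-13 and Klk1b22, Kcnn4 and Slc4a4 lower).

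Several secreted proteins of the list are also made elsewhere, so genes of pancreas and kidney were set beside them. Of 14 pancreatic genes measured, 1 was brightest on saline 6 and none had a 2-fold excess, and the summed intensity was 2855 on saline 6, 3030 on saline 48 and 3188 to 3713 with IL-13. The protease genes Ctrb1 (758.4 on saline 6, 614.2 to 983.7 elsewhere), Cela1 (530.9, and 531.7 to 925.0), Cela2a (216.0, and 118.4 to 247.2) and Ctrl (263.7, and 219.6 to 317.0) and the lipase gene Cel (505.4, and 533.4 to 613.7) overlapped between saline 6 and the rest or were lower on it. Prss2 (16.24), Zg16 (22.67), Gcg (8.648), Ins2 (7.478) and Pnliprp1 (54.76) were under the floor on saline 6 and on at least 1 other array. Clps (101.1), Pnliprp2 (93.26), Reg1 (168.5) and Reg2 (107.6) were above it but under the median. Of 13 kidney genes measured, 3 were brightest on saline 6 (Aqp2, Pck1 and Umod). Their summed intensity was 6215 there, 5362 on saline 48 and 4214 to 5574 with IL-13, but without Pck1, an enzyme of glucose synthesis also made in liver and fat (3872 on saline 6, 1261 to 2260 elsewhere), it was lowest on saline 6 (2343, against 3355 on saline 48 and 2953 to 3377 with IL-13). Aqp2, the water channel of the collecting duct, read 206.7 on saline 6 and 29.26 to 57.75 on the others. Cubn (65.72), Kl (305.0) and Slc12a1 (34.66) were lowest on saline 6. The second probe set of Cubn was instead brightest on saline 6 (136.2, and 76.1 to 122.7 elsewhere). Umod, which defines the thick ascending limb, was under the floor on all arrays.

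Genes of other tissues were also brighter on saline 6. Of 8 lymph node genes measured, 8 were brightest there, 5 of them at least 2-fold and above the median, with Cxcr5 2-fold but under the median, and their summed intensity was 10330 on saline 6, 1199 on saline 48 and 1102 to 3440 with IL-13. Fcer2a read 1064 on saline 6 and 39.32 to 300.4 on the others, Ms4a1 2352 and 306.0 to 818.4, and Cxcr5 217.4 and 22.74 to 61.2. Of 10 fat genes, 9 were brightest on saline 6 (summed intensity 70730, 38000 on saline 48 and 30620 to 36820 with IL-13), with Lipe at 2.54-fold, Cidea at 2.51-fold and Cidec at 2.34-fold, while Lep was not (930.9, and 1077 to 1948). Of 11 heart genes, 7 were (summed intensity 42550, 24580 and 25840 to 34420), with Myh6 at 3986, Tnni3 at 2338 and Myl7 at 7547 on saline 6 and at 1391, 826.5 and 3323 on IL-13 18, and with Myl2 lowest on saline 6 (216.2). Limma called no gene of lymph node (6 tested), fat (10) or heart (10). At an unadjusted p under 0.05, 4 fat genes were lower, against 310 of all 7811 probe sets tested. The part of these tissues in the members' values was not tested.

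Against the 20.4% of all genes that were brightest on saline 6, the counts were 0 of 4 for thyroid and parathyroid, 0 of 8 for lung alveolus, 2 of 15 for squamous epithelium and 2 of 11 for airway surface and glands. The last 2 include Prol1, which is also in the acinar list. The counts were above that share for immature thymocyte (3 of 11) and skeletal muscle (5 of 16), in neither of which a gene had a 2-fold excess. At an unadjusted p under 0.05 in limma, 5 of 9 immature thymocyte genes tested were lower with IL-13. At the same level 4 of 12 squamous epithelium genes were higher, against 310 lower and 413 higher of all 7811 probe sets tested. None of these genes was called after adjustment. Tshr read 41.09 on saline 6 (69.95 to 378.9 elsewhere), Pax8 607.8 (752.7 to 1494), Krt6a 2284 (3413 to 13140), Sprr1a 796.1 (1351 to 3801), Satb1 3683 (869.3 to 7293) and Tff2 10430 (12520 to 17620). For the lung alveolus, Slc34a2 (251.8) and Sftpb (231.8) were, like Sftpc, brighter on saline 6 than on the arrays saline 48, IL-13 6 and IL-13 48, and far below IL-13 18 (2730 and 2114).

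**Figure D5:**
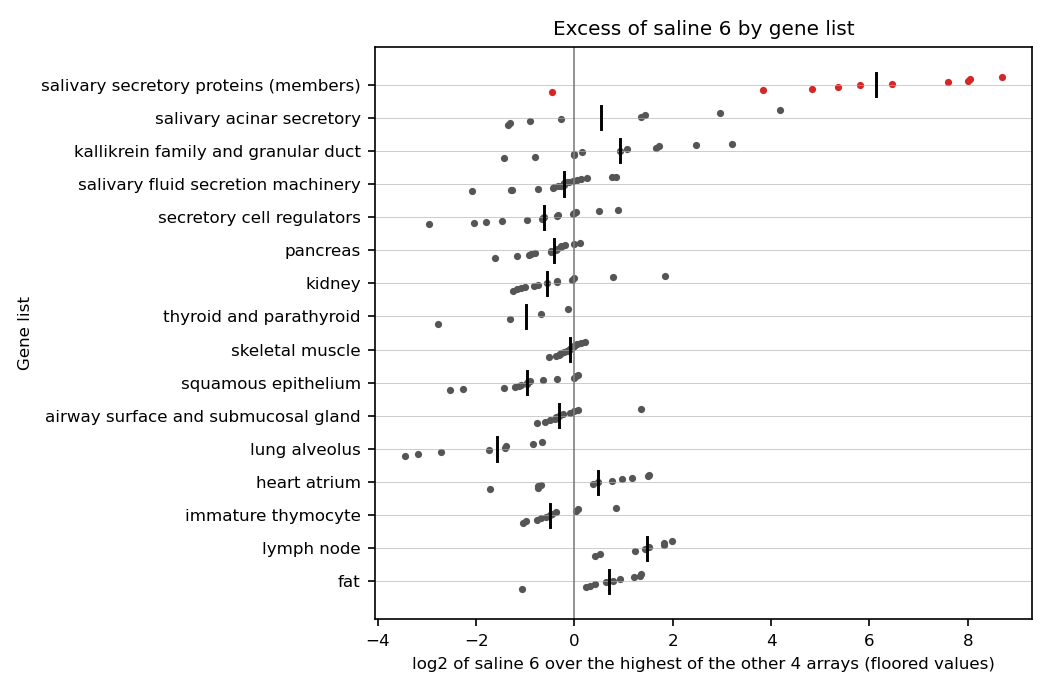
Log2 ratio of saline 6 to the highest of the other 4 arrays, after the floor, for the members (red) and the genes of 15 other lists; a point is a gene, and black bars are medians. The members have a median of 6.13, with Egf alone below 0 at -0.46, the lymph node list has 1.48 and the pancreas list -0.42.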

How the data were processed

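The authors deposited a single table of 12488 probe set intensities on a linear scale for 5 arrays. No source used here names the software, the background correction or the target of the scaling. The values show that arrays had been scaled, with 2% trimmed means between 800.39 and 800.47. Control probe sets (66) were left out. Genes were named from the platform annotation where it gave 1 symbol (10833 probe sets; 396 had several, 1193 none), updated through the gene number to RefSeq symbols. Members were matched on the symbol itself, not on older names, since Klk1 is also an older name of Klk1b1. Each array was brought to the same trimmed mean, floored at the 20th percentile (55.3) and put on a log2 scale. Probe sets above the 40th percentile (210) on at least 2 arrays entered limma 3.58.1 (lmFit, eBayes; R 4.3.3), a two-sided test with 3 residual and 3.46 prior degrees of freedom and Benjamini-Hochberg adjustment. The fit was tested on simulated data. SE is the moderated standard error.

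The members, gene lists and tests were chosen with earlier results of these data known. Genes named outside the members were the 12 with the largest excess of saline 6, all measured genes of the acinar, kallikrein and pancreas lists, and up to 4 of each other list by the size of that excess. Others were named because they were brightest on saline 6 or as tissue checks. The number of arrays limits the precision, and saturation of bright probe sets was not tested. Alternatives were quantile normalization, values as deposited, a lower floor (10th percentile) or a higher one (40th), testing without a filter or with one at the 60th percentile, limma's trend and robust options, a block for the title number, leaving out each array, fold thresholds of 1.5 and 3, and the other saline array as control of a pair. Figures were drawn with matplotlib 3.10.9.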

Additional observations from a re-analysis of the deposited data

Results flagged for a closer look

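For 2 member probe sets that passed the filter, the difference between IL-13 and saline ran in opposite directions in the pairs of arrays at 6 and at 48, by at least 2-fold in each. Prpmp5 98383_r_at was lower with IL-13 at 6 (-1.89 on the log2 scale) and higher at 48 (1.48). Klk1b5 104495_f_at was lower at 6 (-5.9) and higher at 48 (1.16). At 48 both arrays of these probe sets were under the median of all probe sets, and saline 48 was at the floor for Prpmp5. With 1 array a side, the difference between 6 and 48 was not tested.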

How the results depend on the processing

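Over all probe sets, limma called 3 lower and 1 higher after IL-13. The counts were 3 and 0 with quantile normalization and 1 and 0 with the filter at the 60th percentile. They were 0 and 0 with the lower (10th percentile) or higher (40th) floor, without a filter, and with the trend and robust options. With title number as a replicate block over the 4 arrays of 6 and 48 they were also 0 and 0, with 0 member probe sets called; the 6 minus 48 differences of the treatments correlated at 0.13 across probe sets. Leaving out any 1 IL-13 array gave 0 and 0, with 0 member probe sets called. Leaving out a saline array left a single control, and the counts of those fits are not given. Without saline 48 that control was saline 6, whose brightness chose the members. Member probe sets called lower numbered 0 under the other settings. The count of 11 member probe sets at least 2-fold lower at 6 was kept under the alternative normalization, scaling, floors and fold thresholds, and became 0 with saline 48 as the control. The count of 0 at 48 became 1 with a threshold of 1.5-fold (Prpmp5 98382_f_at) and 11 with saline 6 as the control. The causes were not tested beyond which array was exchanged. The log2 excess of genes whose other arrays were under or near the floor moved with it: between the higher and the lower floor Smr3a went from 6.77 to 9.65, Dnase1 92865_at from 6.11 to 8.49, Car6 from 6.08 to 8.27 and Pip from 5.66 to 7.86, Klk1 100060_i_at from 0 to 3.23, while Bpifa2 (5.6) and Klk1b5 161637_f_at (2.97) fell with the higher floor. Egf 161460_r_at was -1.24 with the lower. None reversed.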
